A study of Mus musculus with 7 samples.

Results

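The genes described here encode brakes on ERK signalling, 3 Spred genes (Spred1, Spred2, Spred3), 3 Sprouty genes (Spry1, Spry2, Spry4) and the Ras inactivator Nf1, together with 3 feedback targets of the pathway, Dusp6, Etv4 and Etv5. They were taken by name from the 25655 genes of the count table, and all 10 had a row and enough counts to be fitted. The set was chosen by name with the fold changes and p-values between the groups known, and Spred1 was selected on its low p in that comparison. The differences between groups for these 10 genes are therefore given as a description, with no test read from them.

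Growth factor receptors with tyrosine kinase activity switch on the small GTPase Ras, which starts the chain from Raf over MEK to the kinase ERK. Sprouty proteins hold back this chain near the receptor and Raf. Spred proteins bind neurofibromin, the Nf1 product, and bring it to the membrane, where it returns Ras to its inactive form. Active ERK induces genes that close the loop, among them Sprouty genes, the ERK phosphatase gene Dusp6 and the ETS transcription factor genes Etv4 and Etv5, so these transcripts are widely used as a readout of the pathway. In the retina, FGF and EGF receptor signalling through ERK is best known from Müller glia, while in ganglion cells ERK lies downstream of neurotrophin receptors.

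Whole retinas of wildtype C57BL/6 mice were taken 2 days after the optic nerve had been crushed, an injury to the axons of ganglion cells that both groups had received. The groups were treated with AAV2, a viral vector, that carried Tppp3 for overexpression or was a control vector, named as a CMV control in the labels' protocols. Age, sex and the promoter of the Tppp3 vector are not stated in the labels. They also do not say whether each library came from a separate animal, so the spread between libraries may be partly technical. Each group had 3 libraries that could be matched to a sample. Control libraries held 10961443 to 16218074 counts and Tppp3 libraries 19961359 to 21843892, so every control library was the shallower. Levels are given as CPM, counts scaled to the library size after edgeR's TMM correction.

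Tppp3 itself stood at 18.7, 22.2 and 28.0 CPM in control replicates 1, 2 and 3 and at 53.7, 36.5 and 41.8 CPM in Tppp3 replicates 1, 2 and 3, with no overlap. As a check of the labelled tissue, ganglion cell markers (10 genes) summed to 672 to 797 CPM and bipolar cell markers (8 genes) to 1540.0 to 1941 CPM per library, and no gene of either list was at 0. Pigment epithelium markers (12 genes) summed to 162 CPM in control replicate 1 and 164 and 157.5 CPM in Tppp3 replicates 1 and 3, against 38.1 to 52.6 CPM in the other 3 libraries. Surface epithelium markers (10 genes) summed to 127 to 155 CPM in the controls and 87.0 to 110 CPM with Tppp3 AAV2. In whole tissue, fewer cells of a type and less RNA per cell cannot be told apart.

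Spred1 and Spry2 were the members that were 1.26-fold and 1.28-fold higher in the mean with Tppp3 AAV2, and Nf1 was higher by a smaller step. The feedback targets Dusp6, Etv4 and Etv5 had log2 fold changes of -0.036, -0.11 and 0.035. Each was smaller in size than its standard error, 0.19, 0.29 and 0.16, so equal levels in both groups are not shown. Spred1, Spry2 and Nf1 were higher in every Tppp3 library than in any control library. The other 7 members overlapped. Among all 14750 genes tested, 6.92% were higher in this way without overlap and 7.02% lower, and since the genes were proposed from this comparison nothing is read from the count. At an adjusted p under 0.05 over all genes in edgeR's quasi-likelihood test, 0 of the 10 members were called higher and 0 lower, where 0% and 0.0136% of all genes tested were called. DESeq2's Wald test called 1 member higher, Spred1, and 0 lower, where it called 0.0148% and 0.089% of its genes, and limma's voom called 0 members. At an unadjusted p under 0.05 edgeR's test held 3 members on the higher side and 0 on the lower, where 3.67% and 3.55% of all genes tested lay. Because the members were proposed from this comparison, nothing is read from any of these counts of members, the call of Spred1 included. The median log2 fold change of the 10 members was 0.018, beside 0.0030 over all genes tested. Of the members, 6 had a positive and 4 a negative fold change.

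**Figure D1:**
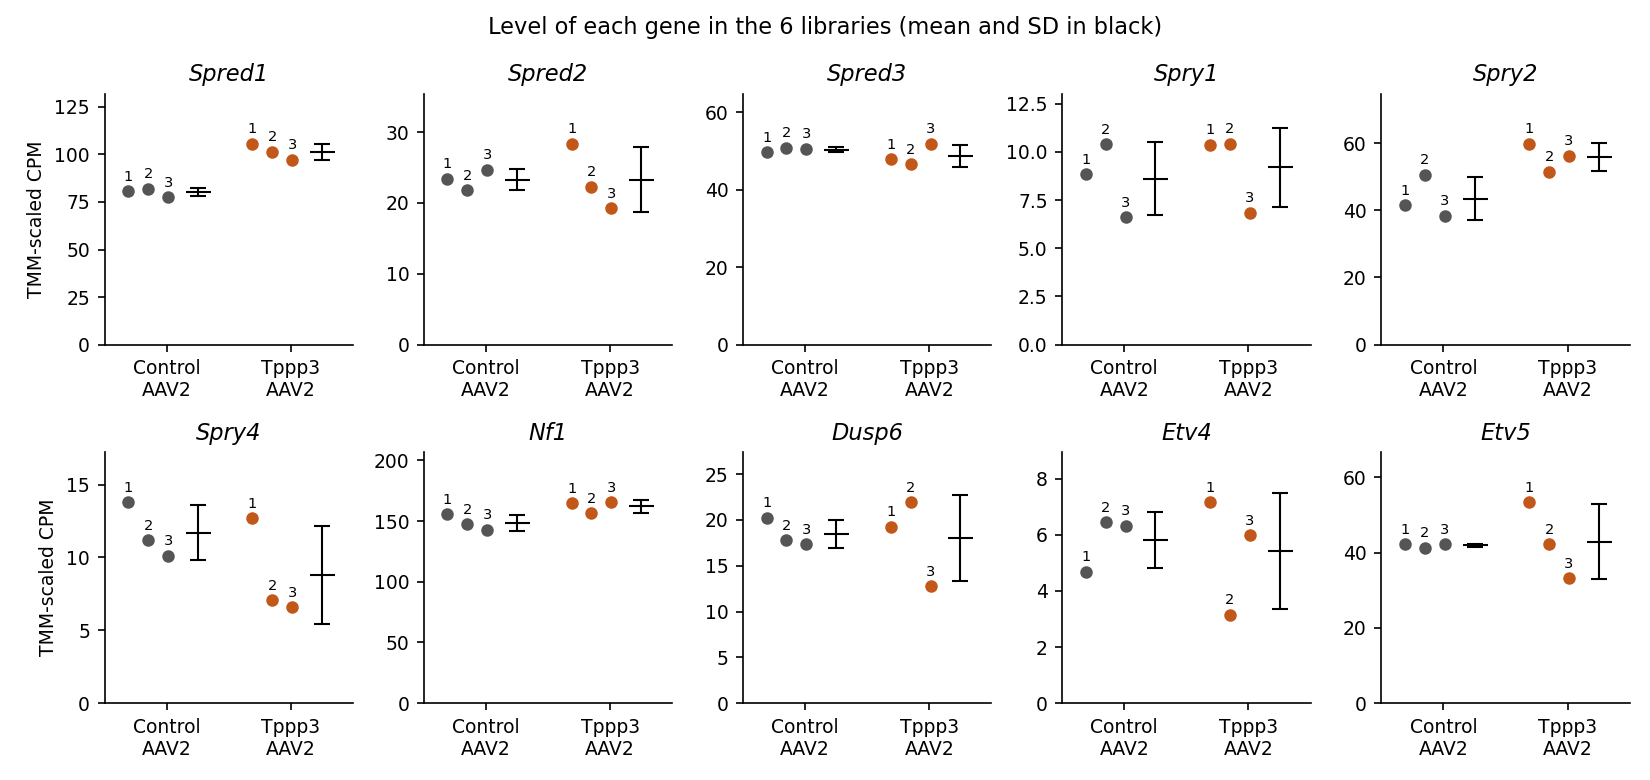
TMM-scaled CPM (vertical axes, each starting at 0) of the 10 genes in control AAV2 (grey) and Tppp3 AAV2 (orange) libraries, with the replicate number above each point and the mean and SD of 3 libraries beside the points. Spred1, Spry2 and Nf1 are higher in every Tppp3 library than in any control library, and Spred2, Dusp6 and Etv5 spread widely among the Tppp3 libraries.

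Spred1 encodes the Spred protein whose loss in people causes Legius syndrome, a condition that overlaps with neurofibromatosis. Its level was 80.8, 81.9 and 77.6 CPM in control replicates 1, 2 and 3 and 105.6, 101.4 and 97.1 CPM in Tppp3 replicates 1, 2 and 3. The highest control library lay below the lowest Tppp3 library, and the gap between the groups was wider than the range within either. The means were 80.1 ± 2.20 and 101.4 ± 4.25 CPM (SD, n = 3 each), and the log2 fold change was 0.34 ± 0.054 (SE), a 1.26-fold difference. The raw counts, 914, 1332 and 859 for control and 2079, 2249 and 2046 for Tppp3 libraries, put the counting error of a library at 2.11% to 3.41%. With 1 library left out the log2 fold change stayed between 0.30 and 0.37, and after thinning all libraries to the depth of the shallowest it was 0.35.

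The share of Spred1 within the Spred family follows from its own difference between the groups. Spred1 made up 52.1% ± 1.16 of the CPM of the 3 Spred genes in the controls and 58.5% ± 0.98 (SD, n = 3 each) in the Tppp3 libraries. The summed level of the 3 genes was 153.9, 154.5 and 152.9 CPM in the control libraries and 181.8, 170.3 and 168.3 CPM in the Tppp3 libraries, so the sum did not overlap either. Both the share and the sum contain the gene that was chosen and add no independent evidence.

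Spred2, a relative with the same binding partners, did not share the difference in Spred1. It stood at 23.4, 21.8 and 24.7 CPM in the controls and 28.4, 22.3 and 19.3 CPM in the Tppp3 libraries. Its means were equal within the spread, 23.3 ± 1.46 and 23.3 ± 4.62 CPM (SD, n = 3 each), with a log2 fold change of 0.0021 ± 0.13 (SE). The highest and the lowest of all 6 values were both in Tppp3 libraries. Spred3, the Spred gene that lacks a functional c-Kit binding domain, varied little in the controls, at 49.7, 50.9 and 50.6 CPM. It stood at 47.9, 46.5 and 51.9 CPM with Tppp3 AAV2, so that the groups overlapped. Its log2 fold change was -0.048 ± 0.064 (SE). Spred3 shares 202 exon bases with Ggn, a gene on the other strand, in the GENCODE M21 annotation, and the library kit does not mark strand. Ggn had a mean of 1.68 CPM in the controls and 1.97 CPM with Tppp3 AAV2, far below Spred3.

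Spry2 encodes the best studied Sprouty protein, which also binds the ubiquitin ligase Cbl. Its level was 41.5, 50.5 and 38.4 CPM in control replicates 1, 2 and 3 and 59.8, 51.5 and 56.2 CPM in Tppp3 replicates 1, 2 and 3. The groups did not overlap, but control replicate 2 and Tppp3 replicate 2 lay within 1 CPM of each other. The means were 43.5 ± 6.29 and 55.8 ± 4.18 CPM (SD, n = 3 each), with a log2 fold change of 0.36 ± 0.10 (SE), a 1.28-fold difference. This is about the size seen for Spred1, with a wider spread between libraries. With 1 library left out it ranged from 0.27 to 0.48.

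Spry4 differed in the opposite direction. It stood at 13.8, 11.2 and 10.1 CPM in the controls and 12.7, 7.08 and 6.60 CPM in the Tppp3 libraries. Tppp3 replicates 2 and 3 were below every control library, while Tppp3 replicate 1 was above control replicates 2 and 3. The log2 fold change was -0.41 ± 0.27 (SE), and it was -0.78 without Tppp3 replicate 1, -0.28 without Tppp3 replicate 2, -0.24 without Tppp3 replicate 3 and -0.29 without control replicate 1. Spry1, a feedback inhibitor like the other Sprouty genes, stood at 8.84, 10.4 and 6.60 CPM in the controls and 10.4, 10.4 and 6.84 CPM with Tppp3 AAV2. The groups overlapped almost fully, with a log2 fold change of 0.088 ± 0.21 (SE). In each group replicate 3 was the lowest, and replicates share a number but no stated source. Spry1 overlaps the predicted gene Gm42922 on the other strand by 710 exon bases, and that gene had 0 counts in all 6 libraries.

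The balance within the Sprouty family therefore differed between libraries. Spry2 made up 64.7%, 70.1% and 69.7% of the CPM of the 3 Sprouty genes, not corrected for length, in control libraries and 72.2%, 74.6% and 80.7% with Tppp3 AAV2. Spry4 made up 21.5%, 15.5% and 18.4% in control libraries and 15.3%, 10.3% and 9.47% with Tppp3 AAV2. Each Tppp3 library had a larger Spry2 share and a smaller Spry4 share than any control library. As parts of the same sum, the shares are not separate observations, since a higher Spry2 level by itself lowers the Spry4 share. The Spry4 shares of control replicate 2 and Tppp3 replicate 1 were close, at 15.5% and 15.3%, and the CPM of Spry4 itself overlapped. The sum of the 3 genes overlapped, at 55.1 to 72.1 CPM in the controls and 69.0 to 82.9 CPM with Tppp3 AAV2. Spry3 is not among the genes analysed here.

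Nf1, the Ras GTPase-activating protein that Spred proteins recruit, stood at 155.6, 147.6 and 142.7 CPM in the controls and 164.9, 156.3 and 165.5 CPM in the Tppp3 libraries. The groups did not overlap, but control replicate 1 and Tppp3 replicate 2 were less than 1 CPM apart. The means were 148.6 ± 6.50 and 162.2 ± 5.18 CPM (SD, n = 3 each), and the log2 fold change was 0.13 ± 0.051 (SE), a 1.09-fold difference. Fitted beside the pigment epithelium marker level, it was 0.074. Several small genes lie in introns of Nf1 on the other strand, Omg, Evi2, Evi2a and Evi2b, with 0 shared exon bases in GENCODE M21. Omg, which encodes a myelin glycoprotein, had a mean of 9.91 ± 0.62 CPM in the controls and 12.5 ± 1.89 CPM in Tppp3 AAV2 libraries (SD, n = 3 each). Its log2 fold change was 0.34 ± 0.14 (SE, edgeR adjusted p = 0.665), and 0.21 without Tppp3 replicate 3. Evi2a averaged 1.58 CPM in the controls and 1.95 CPM with Tppp3 AAV2, and Evi2 and Evi2b were below 1 CPM in the mean of each group.

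**Figure D2:**
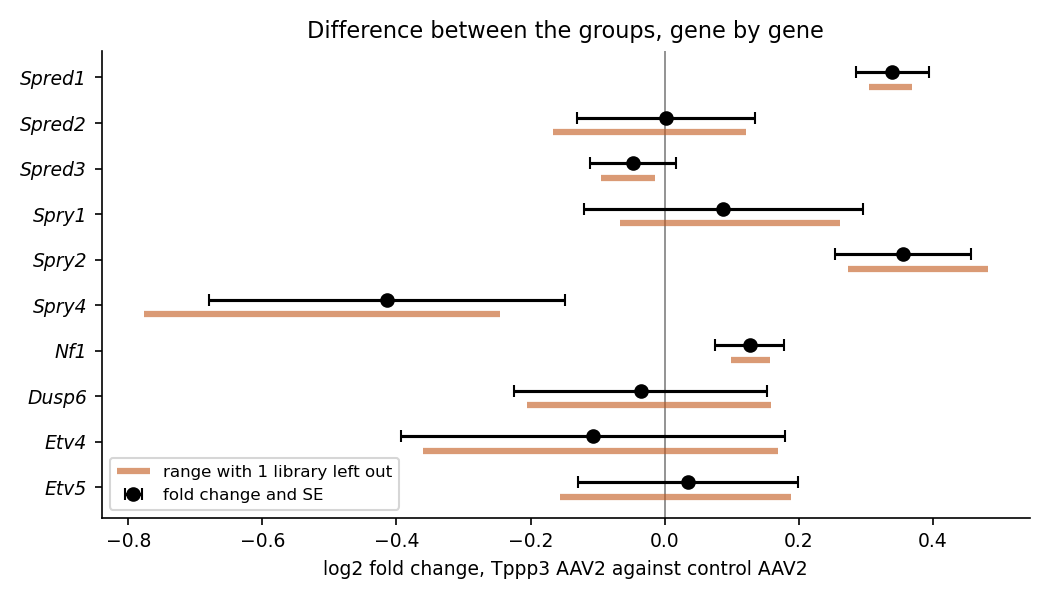
Log2 fold change of Tppp3 AAV2 against control AAV2 (horizontal axis) for the 10 genes, with its standard error (black) and the range of the value when each of the 6 libraries is left out in turn (orange). The ranges of Spred1, Spry2 and Nf1 lie above 0 and those of Spry4 and Spred3 below, and the ranges of Spred2, Spry1, Dusp6, Etv4 and Etv5 include 0.

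The feedback targets Dusp6, Etv4 and Etv5 showed no such separation. Dusp6, whose product removes phosphate from ERK, stood at 20.2, 17.8 and 17.4 CPM in the controls and 19.3, 21.9 and 12.8 CPM with Tppp3 AAV2. Both the highest and the lowest value were in Tppp3 libraries. The log2 fold change was -0.036 ± 0.19 (SE). Etv5 was nearly constant in the controls, at 42.2, 41.4 and 42.2 CPM, and differed between the Tppp3 libraries, at 53.4, 42.2 and 33.3 CPM. Its means were 41.9 ± 0.47 and 43.0 ± 10.1 CPM (SD, n = 3 each), with a log2 fold change of 0.035 ± 0.16 (SE). Etv4, a close relative of Etv5, had few counts in every library, at 4.69, 6.45 and 6.33 CPM in the controls and 7.16, 3.16 and 5.98 CPM in the Tppp3 libraries. Its log2 fold change was -0.11 ± 0.29 (SE), and with 53 to 141 raw counts its counting error reached 13.7% in a library.

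Several members differed more among the Tppp3 libraries than between the group means. The p that chose Spred1 depends on the spread within groups, so its own narrow range is no finding. Among 10390 tested genes of at least 10 CPM, the highest Tppp3 library exceeded the lowest 1.11-fold in the median gene and 1.30-fold at the 90th percentile. The same ratio was 1.93-fold for Spry4, 1.72-fold for Dusp6, 1.60-fold for Etv5 and 1.47-fold for Spred2, and 1.60%, 2.19%, 2.71% and 3.95% of those genes had a wider range. Counting error was at most 9.45% in a library for Spry4, 7.22% for Dusp6, 4.63% for Etv5 and 6.14% for Spred2. The ratio was 1.16-fold for Spry2, 1.115-fold for Spred3, 1.09-fold for Spred1 and 1.06-fold for Nf1. Etv4, at 2.27-fold, and Spry1, at 1.52-fold, lie below 10 CPM in their mean, where ranges are wider in general. Spry4, with a mean of 10.25 CPM over all libraries, lies at the lower edge of the genes compared, so the same limit applies to it. Among the control libraries the ratio was 1.11-fold in the median gene. There it was 1.36-fold for Spry4, 1.17-fold for Dusp6, 1.02-fold for Etv5 and 1.13-fold for Spred2. For Spry2 it was 1.315-fold in the controls, and 8.28% of those genes had a wider range.

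Tppp3 replicate 3 was the lowest Tppp3 library for 6 of the 10 members (Spred1, Spred2, Spry1, Spry4, Dusp6 and Etv5), and it was the lowest for 30.8% of all genes tested. Tppp3 replicate 1 was the highest for 6 members (Spred1, Spred2, Spry2, Spry4, Etv4 and Etv5), beside 32.9% of all genes tested. The controls were as uneven. Control replicate 3 was the lowest control library for 6 members, beside 34.6% of all genes tested. Control replicate 2 was the highest for 5, beside 30.2%. The most alike pair of the 45 pairs of members over the 6 libraries was Spred2 and Etv5, whose log2 CPM, each centred on its mean, differed by a root mean square of 0.063. Spred3 and Nf1 came next at 0.10, though their log2 fold changes had opposite signs, -0.048 and 0.13. Spred1 lay 0.12 from Spry2 and 0.12 from Nf1, and Dusp6 lay 0.18 from Etv5. A small distance can thus come from little variation in both genes and does not show a shared direction. These distances describe 6 libraries, and members of low counts have larger ones.

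**Figure D3:**
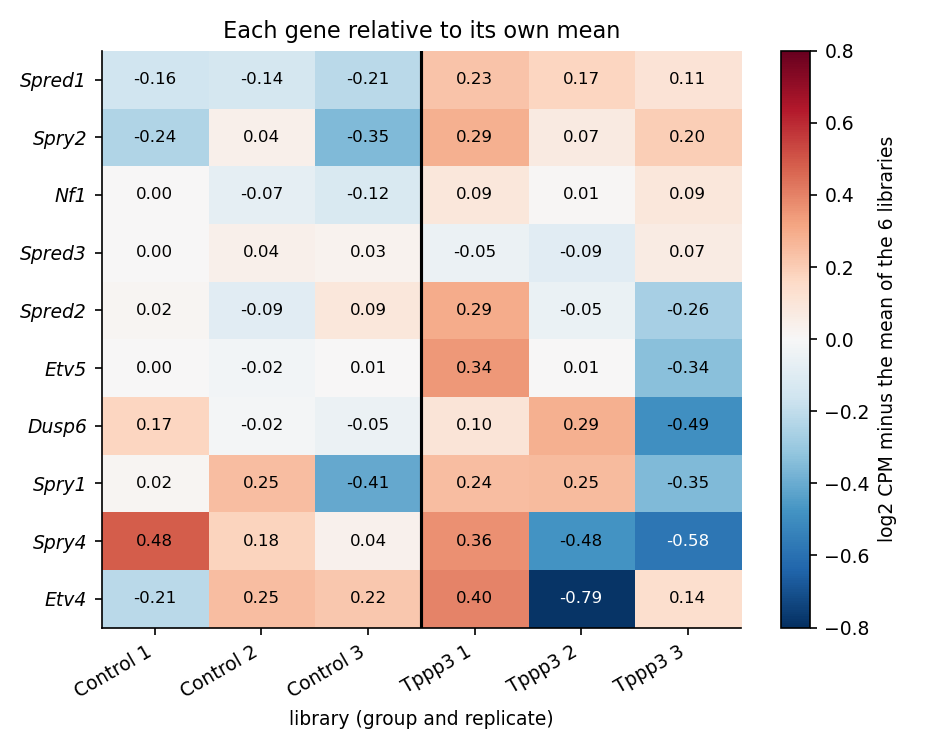
Log2 CPM of each gene minus its mean over the 6 libraries (colour and printed value), with control AAV2 libraries left and Tppp3 AAV2 libraries right of the black line. Etv5 and Spred2 stand at 0.34 and 0.29 in Tppp3 replicate 1 and at -0.34 and -0.26 in Tppp3 replicate 3, whereas Spred1 is positive in each Tppp3 library.

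Several marker lists also differed among the Tppp3 libraries. Lens markers (10 genes) summed to 27.7 CPM in Tppp3 replicate 1 and 4.65 and 6.65 CPM in Tppp3 replicates 2 and 3, beside 3.07 to 8.91 CPM in the controls. Astrocyte markers (4 genes) summed to 92.3, 130.7 and 55.9 CPM and microglia markers (8 genes) to 143.5, 223 and 122 CPM in Tppp3 replicates 1, 2 and 3. In the controls these sums were 60.2 to 120.0 CPM and 132 to 209 CPM. Müller glia markers (8 genes) summed to 3345 to 4048 CPM in the Tppp3 libraries and 2987 to 3699 CPM in the controls. The part of these cells in the levels of the members was not tested.

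Levels of different genes can be set side by side only per length of transcript. Per kilobase of annotated exon (GENCODE M21), Spry2 was the highest member at 20.8 ± 3.01 CPM per kilobase in the controls (SD, n = 3), followed by Spred1 at 11.8 ± 0.32, Etv5 at 10.2 ± 0.12, Nf1 at 9.38 ± 0.41 and Spred3 at 8.10 ± 0.10. Etv5 and Nf1 differed by more than their SD, though the annotated length may not be that of the transcripts used in retina. Dusp6 followed at 5.89 ± 0.50 and Spred2 at 5.04 ± 0.32, and then Spry1 at 2.96 ± 0.66, Spry4 at 2.46 ± 0.40 and Etv4 at 1.88 ± 0.32 CPM per kilobase. Spry1 and Spry4 did not differ beyond their spread. With Tppp3 AAV2, Spry2 stood at 26.8 ± 2.01 and Spred1 at 15.0 ± 0.63 CPM per kilobase, which kept them first and second.

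The stretch of genome before the annotated start is shown for Spred1 and Spry2, the 2 members with the larger positive difference, as RefSeq gives it on GRCm38.p6. Each runs over the 250 bases before the start and overlaps 0 annotated exon bases. The GENCODE starts of Spred1 lie downstream of this RefSeq start.
Spred1, chr2:117120821-117121070, plus strand: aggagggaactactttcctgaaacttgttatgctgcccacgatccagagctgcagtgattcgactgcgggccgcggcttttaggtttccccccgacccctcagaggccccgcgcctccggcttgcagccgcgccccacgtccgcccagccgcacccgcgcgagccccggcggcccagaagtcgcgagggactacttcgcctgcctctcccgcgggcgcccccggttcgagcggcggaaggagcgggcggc
Spry2, chr14:105896820-105897069, minus strand: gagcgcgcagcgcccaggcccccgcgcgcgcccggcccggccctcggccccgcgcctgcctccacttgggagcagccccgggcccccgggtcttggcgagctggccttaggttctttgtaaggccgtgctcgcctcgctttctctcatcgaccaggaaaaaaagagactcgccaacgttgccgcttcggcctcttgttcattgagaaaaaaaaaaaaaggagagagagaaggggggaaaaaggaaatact
The windows are rich in G and C, 70.8% for Spred1 and 62.4% for Spry2. Neither holds the ETS motif CCGGAAGT, the cyclic AMP response element TGACGTCA, its shorter core TGACG or the AP-1 motif TGANTCA on either strand, where 2.88%, 1.55%, 17.8% and 6.75% of 32851 promoter windows of the same length do. TGACG is part of TGACGTCA, so those searches overlap. Spry4 and Etv4 were not searched. Among the other members, Nf1 has 1 match to the ETS motif, read on the opposite strand. It is shown in capitals with 11 bases on each side.
Nf1, chr11:79339663-79339692, plus strand: gaaaggatcccACTTCCGGtggggtgtcat
Spred2 has 1 match to TGACG. No such match says whether a factor binds there.

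For Spred1, Spry2 and Dusp6 the genes of most similar pattern were sought among 10221 other genes of at least 10 CPM, by the root mean square difference of centred log2 CPM over the 6 libraries. Nearest to Spred1 was Plxna4, which encodes a semaphorin receptor subunit, at 0.037. It stood at 24.3, 26.5 and 24.5 CPM in the controls and 32.9, 30.9 and 29.3 CPM with Tppp3 AAV2, the same order of Tppp3 libraries as Spred1. Ociad2 (0.057) and Ahsa2 (0.065) followed. Nearest to Spry2 were Zfp966 (0.072), the inositol transporter gene Slc5a3 (0.079) and Bcorl1 (0.085). Slc5a3 stood at 23.1, 26.1 and 22.9 CPM in the controls and 33.7, 28.7 and 34.4 CPM with Tppp3 AAV2. Nearest to Dusp6 were the troponin gene Tnnt1 (0.073), Rnf8 (0.078) and Mtfmt (0.086), and each of these was lowest in Tppp3 replicate 3, like Dusp6. Such shared orders and extremes follow from the search itself, which picked the closest of 10221 genes over 6 libraries, and are no separate result.

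The rest of the pathway was described with 7 lists of 133 genes, none of them a member, of which 121 could be tested. In edgeR's quasi-likelihood test, 0 of the 121 were higher and 0 lower at an adjusted p under 0.05, and DESeq2's Wald test and limma's voom also called 0. At an unadjusted p under 0.05 edgeR's test held 6 higher and 1 lower, where 3.67% and 3.55% of all genes tested lay. Of the 121 genes, 76 had a positive and 45 a negative fold change, with a median of 0.046, beside 50.9% positive and a median of 0.0030 among all genes tested. The groups did not overlap for 14 of them in the higher direction and 2 in the lower, against 6.92% and 7.02% of all genes tested. None of these counts was tested against other genes.

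**Figure D4:**
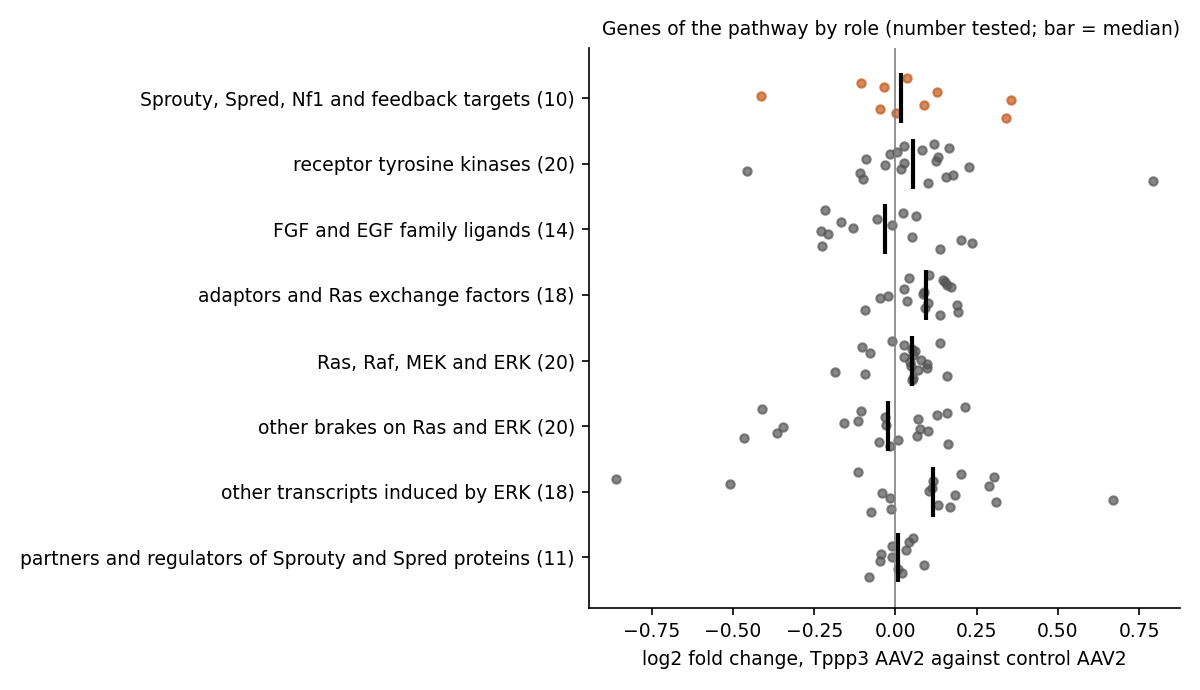
Log2 fold change of Tppp3 AAV2 against control AAV2 (horizontal axis) of the 10 members (orange) and of the tested genes of 7 lists of the same pathway (grey), with the median of each list as a black bar and the number of genes in brackets. The medians lie between -0.034, for the ligands, and 0.12, for other transcripts induced by ERK.

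Upstream of Ras, receptor tyrosine kinase genes had a median of 0.055 on the log2 scale over 20 genes, 14 of them positive. The insulin receptor gene Insr averaged 147 ± 6.98 CPM in the controls and 165 ± 10.3 CPM in Tppp3 AAV2 libraries (SD, n = 3 each; a difference of 0.17 on the log2 scale, adjusted p = 0.648 in edgeR). Igf1r stood at a log2 fold change of 0.083 and the neurotrophin receptor gene Ntrk2 at 0.13. The ligand genes of the FGF and EGF families had a median of -0.034 over 14 tested genes, with Fgf1 at 0.14, Tgfa at -0.17 and Fgf10 at -0.21. Of these receptors and ligands 0 separated the groups. Fitted beside the pigment epithelium marker level, Insr stood at 0.095, Ntrk2 at 0.019 and Fgf1 at 0.0040. Adaptor and Ras exchange factor genes had a median of 0.095 over 18 genes, 15 of them positive. Beside 6.92% of all genes tested higher without overlap and 7.02% lower, 5 of the 18 were higher and 0 lower. Among these, the adaptor gene Shc1 averaged 22.8 ± 0.25 and 26.1 ± 1.34 CPM (SD, n = 3 each; a difference of 0.19 on the log2 scale, adjusted p = 0.673 in edgeR). The exchange factor genes Sos2 and Rasgrp1 stood at 0.17 and 0.16, and Sos2 at 0.095 without control replicate 3.

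Fgf2 and Fgfr2, singled out after their values were seen, differed several-fold between libraries of the same group. Fgf2 stood at 68.2, 168 and 222 CPM in control replicates 1, 2 and 3 and 94.8, 223 and 74.1 CPM in Tppp3 replicates 1, 2 and 3. Fgfr2 stood at 4.68, 0.74 and 0.63 CPM in the controls and 4.93, 1.58 and 3.75 CPM with Tppp3 AAV2. Fgf2 was lowest, and Fgfr2 highest, in the 3 libraries with the high sums of pigment epithelium markers given above. The part of pigment epithelium in these values was not tested. Of the members, Spred1 stood at a log2 fold change of 0.33 and Spry4 at -0.65 in the fit beside that marker level.

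In the chain itself, the genes of Ras, Raf, MEK, ERK and their scaffolds and S6 kinases had a median of 0.052 over 20 genes. Of these, 15 were positive, and 4 were higher without overlap and 0 lower, beside 6.92% and 7.02% of all genes tested. Rps6ka3, Nras and Braf stood at 0.14, 0.16 and 0.098, and with the pigment epithelium covariate at 0.071, 0.25 and 0.046. Nras averaged 35.3 ± 2.52 CPM in the controls and 39.4 ± 2.35 CPM in Tppp3 AAV2 libraries (SD, n = 3 each; edgeR adjusted p = 0.728). Other brakes on Ras and ERK had a median of -0.023 over 20 genes, 9 positive and 11 negative, with 2 higher and 1 lower without overlap. The ubiquitin ligase gene Cbl, which takes receptors off the membrane, was at 0.16 (edgeR adjusted p = 0.652) and the Ras GTPase-activating gene Rasa2 at 0.16. The ERK phosphatase gene Dusp7 was at -0.16. Partners and regulators of Sprouty and Spred proteins had a median of 0.0073 over 11 genes, with 1 higher and 1 lower without overlap. The ubiquitin ligase gene Nedd4 stood at 0.088, the kinase gene Tesk1 at -0.082 and the phosphatase gene Ppp2ca at -0.049.

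Transcripts induced by ERK other than the members had a median of 0.12 over 18 genes, 11 of them positive and 7 negative. The 3 genes described next were those of smallest p with at least 1 CPM, and all were positive. Of the 7 negative genes, Myc stood at a log2 fold change of -0.51, Vgf at -0.11 and Fos at -0.017. Ier3, an early response gene, stood at 26.3, 32.5 and 30.6 CPM in the controls and 35.2, 36.6 and 37.5 CPM with Tppp3 AAV2 (log2 fold change 0.29, edgeR adjusted p = 0.639). The groups did not overlap for Ier3. In the list, 2 genes were higher in this way and 0 lower, beside 6.92% and 7.02% of all genes tested. Etv1, the third gene of the Etv4 and Etv5 subfamily, stood at 13.8, 12.7 and 12.3 CPM in the controls and 16.6, 15.0 and 16.3 CPM with Tppp3 AAV2. Unlike Etv4 and Etv5, Etv1 was higher in each Tppp3 library than in any control library, with a log2 fold change of 0.31 ± 0.10 (SE, edgeR adjusted p = 0.648). The early growth response gene Egr1 stood at 43.7, 51.3 and 36.7 CPM in the controls and 48.7, 67.8 and 93.4 CPM with Tppp3 AAV2. It was highest in Tppp3 replicate 3, the library in which Dusp6, Etv5 and Spry4 were lowest. Its log2 fold change was 0.67 ± 0.29 (SE, edgeR adjusted p = 0.730), and it was 0.40 without Tppp3 replicate 3.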

How the data were processed

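Poly(A)-selected RNA of whole retina was sequenced as paired reads of 150 bases from libraries without strand marks, per the labels' protocols. The authors deposited 1 table of raw counts per gene symbol, per the file headers. Genome build, by the submitters' processing notes, was GRCm39 (mm39). For the aligner, counting tool and annotation, the sources used here give no name. The members and gene lists were chosen with earlier results of these data known.

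The labels name 4 control and 3 Tppp3 samples, whereas their treatment protocol gives 4 Tppp3 and 3 control retinas, and the sample titles were followed. Columns were matched to samples by title, which gave 3 libraries per group. The fourth control sample was not analysed here. In addition, 1 column without a matching sample, headed as the fourth Tppp3 library, was left unused, so the table, like the treatment protocol, has 3 control and 4 Tppp3 columns. Chi-square values per gene of 4.10 to 13.9 within groups showed that no library was another one deposited again.

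Of 25655 genes, 14750 passed edgeR's filter by group. They were scaled by TMM and tested with edgeR's quasi-likelihood F test (robust, two-sided), with p-values adjusted by Benjamini-Hochberg and called below 0.05. Each standard error is the fold change divided by the root of F. The common biological coefficient of variation was 11.9%. The procedure was tested on simulated counts. Named genes were all members, Tppp3, genes overlapping a member, the 3 genes of smallest p with at least 1 CPM in each pathway list, and the 3 genes nearest in pattern to Spred1, Spry2 and Dusp6 among those of at least 10 CPM. Exon lengths came from GENCODE M21 and promoters from RefSeq, both on GRCm38. The alternatives were limma's voom with quality weights, DESeq2's Wald test, its size factors in edgeR, a filter at a mean of 1 CPM or none, thinning to equal depth, the replicate number as a block, pigment epithelium level as a covariate, and leaving out each library. Same-numbered libraries had deviations that correlated at -0.029, 0.051 and -0.26 across genes, so the numbers were not taken to pair them. DESeq2 1.42.0, edgeR 4.0.16 and limma 3.58.1 were run in R 4.3.3, and plots were drawn with matplotlib 3.10.9.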

Additional observations from a re-analysis of the deposited data

How the results depend on the processing

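Over the 14 alternatives, Spred1, Spry2 and Nf1 kept a positive fold change and Spry4 and Spred3 a negative one. Nf1 moved from 0.13 to 0.074 and Spry4 from -0.41 to -0.65 with the pigment epithelium covariate, and Spred3 from -0.048 to -0.018 after thinning. DESeq2's Wald test called 1 of the 10 members, Spred1 (log2 fold change 0.34, adjusted p = 0.0067, within 0.0067 to 0.894 over all alternatives), and the other 13 settings called 0. Spred1 was selected on its low p in this comparison, so neither its call nor its constant sign is independent evidence. No setting called a gene of the pathway lists. Tppp3 passed with DESeq2's Wald test alone (log2 fold change 0.94, adjusted p = 2.1e-05, within 2.1e-05 to 0.907). Over all genes, 0 were higher and 2 lower, with 542 and 524 at an unadjusted p under 0.05. The counts became 2 higher and 12 lower with DESeq2's Wald test, 0 lower with voom, 6 lower without the low-count filter, and 1 higher and 1 lower with the pigment epithelium covariate. With single libraries left out 0 to 2 genes were higher and 0 to 1 lower. The replicate number as a block gave 1 gene lower, a member median of -0.0014 and a log2 fold change of -0.014 for Spred2. The median of the members was -0.012 with voom and ranged from -0.065 without Tppp3 replicate 1 to 0.14 without Tppp3 replicate 3. Spred2 turned to -0.013 with voom, -4.0e-04 with a mean of at least 1 CPM, -0.022 with the pigment covariate and -0.0065 after thinning, and lay between -0.17 and 0.12 when 1 library was left out. Spry1 turned to -0.0016 with voom and ranged from -0.067 to 0.26. Etv5 turned to -0.010 with voom and ranged from -0.16 to 0.19. Dusp6 ranged from -0.20 to 0.16, and Etv4 from -0.36 to 0.17. Fgf10 turned to 0.084 after thinning, Ggn to -0.083 with the pigment covariate (-0.17 to 0.44 with 1 library left out), Evi2a to -0.12 with voom (-0.45 to 0.76) and Tnnt1 to 0.087 with the pigment covariate (-0.20 to 0.17). Rnf8 ranged from -0.16 to 0.14 and Mtfmt from -0.19 to 0.043. The cause of these changes was not tested. With raw counts as low as 53, Etv4 is the member whose level depth limits most.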
